A study of Mus with 21 samples.

Results

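Interleukin 1 and interleukin 6 family cytokines are among the first signals made in injured skin. The genes described here are 10 members of these families, chosen by symbol: Il1a, Il1b, Il1rn, Il1r1, Il1r2, Il33, Il1rl1, Il6, Osm and Lif. All 10 were found among the 18806 genes of the count files, and all 10 passed the filter on low counts. The 21 libraries were made from skin wounds of WT C57BL/6 mice at Day 4. They form 7 groups of 3 biological replicates, and the study's methods give the mice as females of 8 weeks. Every mouse had a round wound through the full skin, 8 mm wide, on each side of the back. The control group received no hydrogel scaffold. The other 6 groups received a scaffold of GelMA, a gelatin hydrogel set by light, at pH 6.4, 7.4 or 8.4, loaded with aFGF (acidic fibroblast growth factor) or bFGF (basic fibroblast growth factor). The groups are named 6.4/aFGF, 7.4/aFGF, 8.4/aFGF, 6.4/bFGF, 7.4/bFGF and 8.4/bFGF. All hydrogel groups carried both the gel and a growth factor, so these cannot be told apart against the control. The sources used here do not state whether a library holds 1 wound of a mouse or both, or whether each library came from a separate mouse.

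IL-1 alpha (Il1a) and IL-1 beta (Il1b) bind the receptor IL-1R1 (Il1r1), which signals through MyD88 and NF-kB and induces chemokines that draw neutrophils. The antagonist IL-1Ra (Il1rn) occupies the same receptor without signalling, and IL-1R2 (Il1r2) is a decoy receptor that takes up IL-1. IL-33 (Il33) is a nuclear protein of barrier and stromal cells that is released on damage and acts through ST2 (Il1rl1) on mast cells, regulatory T cells and innate lymphoid cells. IL-6 (Il6), oncostatin M (Osm) and LIF (Lif) signal through receptor complexes that hold gp130, and activate STAT3. Il1rl1 encodes both a membrane receptor and a soluble decoy, and Il1rn both secreted and intracellular forms. Gene counts do not separate these forms.

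Each library held between 34362558 and 37817833 counts. Levels are given as CPM, which scales counts to a fixed total after TMM normalization over all 21 libraries. A gene was called when its Benjamini-Hochberg adjusted p over all genes tested was under 0.05 and its log2 fold change was beyond 0.58, by the edgeR quasi-likelihood test. Some libraries stood apart. Control replicate 2 differed widely from the other controls, with a summed level of 11 neutrophil markers of 8778.8 CPM against 1344.4 and 836.7 CPM. Cartilage, liver and steroid genes were high in 1 hydrogel library each: Col2a1 reached 195.4 CPM in 7.4/aFGF replicate 3, Alb 137.9 CPM in 8.4/aFGF replicate 2 and Hsd3b1 396.8 CPM in 8.4/bFGF replicate 2. Their highest levels elsewhere were 0.965, 14.1 and 0.236 CPM. Skin markers were present throughout, with Krt14 at 1177.6 CPM or more and Col1a1 at 9042.3 CPM or more in every library. In these bulk samples, fewer cells of a type and less RNA per cell cannot be told apart.

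Per length of transcript, Il1b was the most abundant of the 10 genes and Lif the least. The median FPKM over 21 libraries was 397.1 for Il1b, 146.6 for Il33, 80.1 for Il1r2, 52.3 for Il1rn and 51.0 for Il6. It was 41.1 for Il1r1, 22.5 for Osm, 19.6 for Il1rl1, 8.93 for Il1a and 4.04 for Lif. Between the receptors of IL-1, the median FPKM of the decoy Il1r2 was 84.6 against 41.5 for the signalling receptor Il1r1 in the 18 hydrogel libraries, but 18.3 against 25.1 in the 3 controls. The order was not shared by all libraries of a kind. Control replicate 2 had more Il1r2 than Il1r1 (102.2 against 42.3), and 6.4/bFGF replicate 1 had less (33.6 against 36.8). The spread over libraries differed by gene. The highest library was 68.4 times the lowest for Il6, 51.3 times for Lif, 36.7 times for Il1b and 35.1 times for Il1a, but only 4.32 times for Il1r1 and 6.63 times for Il33.

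**Figure D1:**
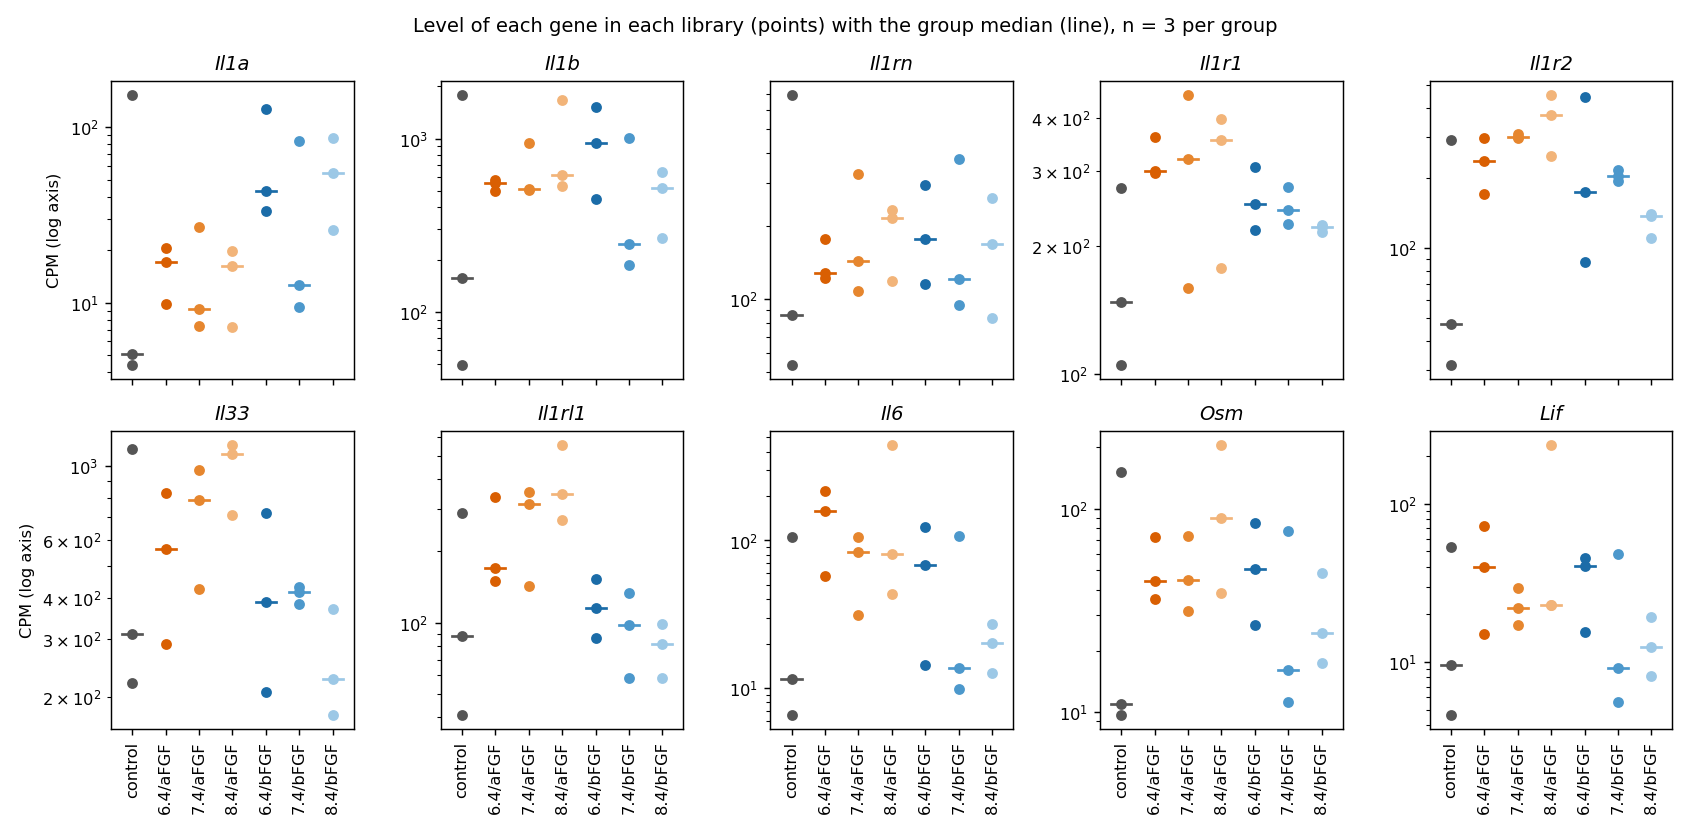
CPM of the 10 genes on log axes, with 1 point per library, a line at the median of each group and n = 3 per group. Control replicate 2 lies at the top of the Il1a, Il1b and Il1rn panels, while the aFGF points of Il1rl1 lie mostly above the bFGF points.

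Calls among these genes came in the comparison of the growth factors. Pooled over pH, Il1rl1 and Il33 rose and Il1a fell in the 9 aFGF libraries relative to the 9 bFGF libraries. This pooled comparison was added after the values had been seen. Of all 15696 genes tested, 3.77% were called, 1.8% higher and 1.98% lower with aFGF. Of the 10 genes, 3 were called, 2 higher and 1 lower. The median log2 fold change over all genes was -0.00119.

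Il1rl1, the receptor for IL-33, was 335.8, 149.9 and 169.6 CPM in 6.4/aFGF, 354.0, 313.3 and 142.3 CPM in 7.4/aFGF and 559.3, 348.2 and 270.7 CPM in 8.4/aFGF. It was 153.2, 86.2 and 115.0 CPM in 6.4/bFGF, 97.7, 58.5 and 133.0 CPM in 7.4/bFGF and 98.9, 81.3 and 58.4 CPM in 8.4/bFGF. The aFGF libraries began at 142.3 CPM and the bFGF libraries ended at 153.2 CPM, so that the groups overlapped only over this narrow range. The log2 fold change was 1.56 (SE 0.239, a fold of 2.95, edgeR adjusted p = 0.00356). The control libraries had 87.8, 287.8 and 40.8 CPM, which spans the bFGF range and part of the aFGF range. When each hydrogel library was left out in turn, the log2 fold change of Il1rl1 stayed between 1.41 and 1.66 and the call was kept.

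Il33, the ligand of that receptor, was 563.5, 288.9 and 830.4 CPM in 6.4/aFGF, 789.7, 972.6 and 425.5 CPM in 7.4/aFGF and 1088.2, 1164.9 and 711.4 CPM in 8.4/aFGF. It was 207.5, 387.7 and 724.0 CPM in 6.4/bFGF, 383.6, 431.3 and 415.6 CPM in 7.4/bFGF and 368.1, 226.1 and 175.8 CPM in 8.4/bFGF. The ranges overlapped at pH 6.4 and 7.4, and at pH 8.4 every aFGF library lay above every bFGF library. Pooled, the log2 fold change was 1.04 (SE 0.260, a fold of 2.06, edgeR adjusted p = 0.0207), and removal of any 1 library gave 0.91 to 1.23. The summed level of 11 macrophage markers moved in the same direction, with medians of 10645.6 CPM for aFGF (6813.4 to 11861.7) and 8407.7 CPM for bFGF (5441.9 to 9427.1), and all 11 markers were detected in every library. Its part in the Il33 difference was not tested.

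Il1a, an IL-1 form that many cells hold and release on damage, took the opposite direction. It was 20.6, 16.9 and 9.77 CPM in 6.4/aFGF, 9.21, 7.32 and 26.8 CPM in 7.4/aFGF and 19.6, 7.28 and 16.2 CPM in 8.4/aFGF. It was 43.2, 127.3 and 33.3 CPM in 6.4/bFGF, 9.42, 12.6 and 83.7 CPM in 7.4/bFGF and 25.9, 54.5 and 86.7 CPM in 8.4/bFGF. The aFGF libraries lay below the bFGF libraries without overlap at pH 6.4 and 8.4, and the groups overlapped at pH 7.4. The pooled log2 fold change was -1.77 (SE 0.464, edgeR adjusted p = 0.0246), so that the aFGF level was lower by a fold of 3.42. The call of Il1a was the least firm of the 3. It was lost (adjusted p between 0.0521 and 0.0529) when replicate 3 of 6.4/aFGF, replicate 1 of 7.4/aFGF, replicate 2 of 8.4/aFGF or 6.4/bFGF, or replicate 3 of 8.4/bFGF was removed, and in a fit over all 21 libraries (adjusted p = 0.0848). The summed level of 8 keratinocyte markers had medians of 5651.0 CPM for aFGF (3533.5 to 7435.5) and 4928.3 CPM for bFGF (2805.8 to 7037.1), and that of 11 neutrophil markers 6894.2 CPM (4103.5 to 11576.1) and 5574.3 CPM (3576.6 to 13665.5). Their part in the Il1a difference was not tested.

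**Figure D2:**
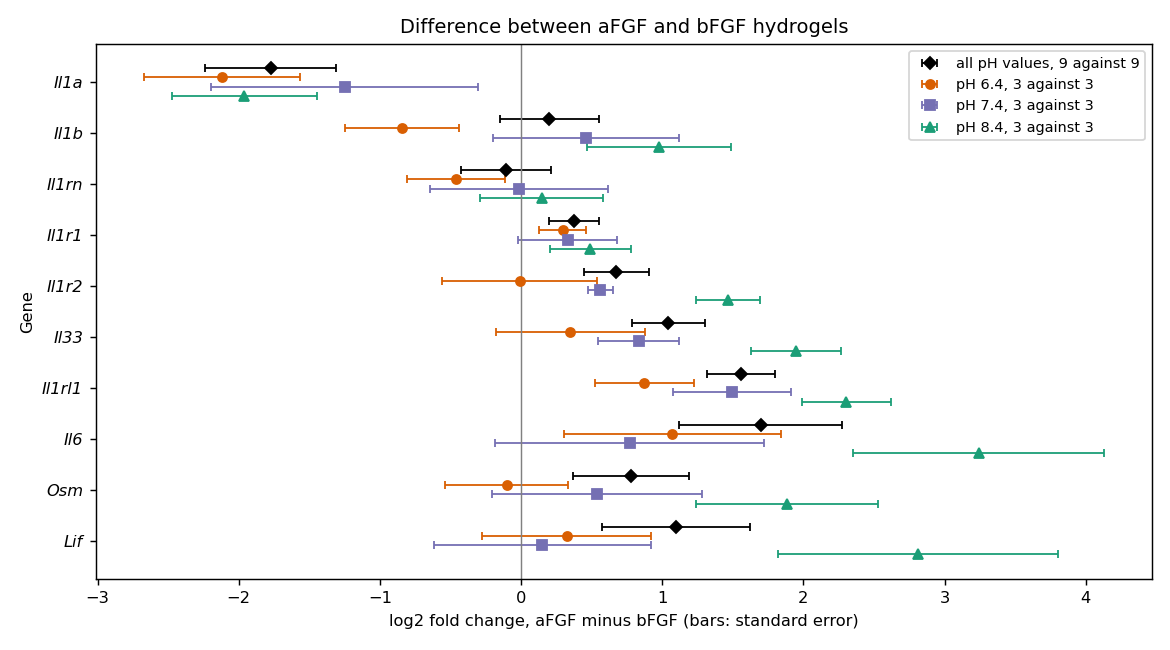
Log2 fold change of aFGF minus bFGF for the 10 genes, with bars of 1 standard error, pooled over pH (9 against 9 libraries) and at each pH (3 against 3). Il1a lies left of 0 in all 4 comparisons and Il1rl1 and Il33 lie right of 0 in all 4, while Il1b and Il1rn lie on either side of 0.

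A fit without the 3 libraries with genes of other tissues was added after the values had been seen, for the pooled comparison only. In it 3 members were still called, with log2 fold changes of 1.69 for Il1rl1, 1.06 for Il33 and -1.95 for Il1a (edgeR adjusted p = 0.0125, 0.0472 and 0.0441). The share of all genes called was 3.09%. The other 7 members did not pass the test in the pooled comparison. Il6 differed by 1.70 (SE 0.58, edgeR adjusted p = 0.0661), Lif by 1.10 (SE 0.526, 0.176), Osm by 0.78 (SE 0.411, 0.221) and Il1r2 by 0.67 (SE 0.231, 0.0663) on the log2 scale. Il1r1 differed by 0.37 (SE 0.178, 0.174), Il1b by 0.20 (SE 0.351) and Il1rn by -0.11 (SE 0.320). The confidence intervals of Il1b (-0.55 to 0.95) and Il1rn (-0.79 to 0.58) leave room for a change in either direction. Il1r2 and Il6 lay near the threshold. DESeq2 called both (adjusted p = 0.0244 and 0.0236), 5 members in all, where it called 4.57% of all genes. Without 6.4/bFGF replicate 3, the bFGF library highest in Il1r2 (443.2 CPM), edgeR called Il1r2 as well (log2 fold change 0.95, adjusted p = 0.00429), with 4.3% of all genes called. Without 7.4/bFGF replicate 3, the log2 fold change of Il6 was 2.31 (adjusted p = 0.017) and that of Osm 1.21 (adjusted p = 0.0395), and edgeR called 5 members and 3.91% of all genes. Il6 was also called without 8.4/aFGF replicate 3 (log2 fold change 1.85, adjusted p = 0.0413), with 4.86% of all genes called.

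At each single pH, 3 libraries stood against 3, and edgeR called none of the 10 genes. The share of all genes called was 0% at pH 6.4, 0% at pH 7.4 and 0.00665% at pH 8.4. At an unadjusted p under 0.05, 2 members passed at pH 6.4, 3 at pH 7.4 and 7 at pH 8.4, against 8.16%, 13% and 21.1% of all genes. The libraries of both groups did not overlap for 1 member at pH 6.4 (Il1a, lower with aFGF), against 14.5% of all genes. At pH 7.4 they did not overlap for 2 members (Il1r2 and Il1rl1, higher), against 20% of all genes. At pH 8.4 they did not overlap for 6 members, against 26.9% of all genes: Il1r2, Il33, Il1rl1, Il6 and Lif were higher with aFGF and Il1a was lower.

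The difference at pH 8.4 was largest for Il6, which was 446.9, 81.2 and 43.6 CPM in 8.4/aFGF and 20.4, 27.3 and 12.7 CPM in 8.4/bFGF. The log2 fold change was 3.24 (SE 0.890, edgeR adjusted p = 0.137), and replicate 1 of 8.4/aFGF stood far above the other 2. Lif followed the same layout, with 236.6, 22.9 and 23.1 CPM against 8.17, 19.3 and 12.5 CPM (log2 fold change 2.81, SE 0.992, adjusted p = 0.185). The same library, 8.4/aFGF replicate 1, was the highest of all 21 in Il1r2, Il1rl1, Il6, Osm and Lif.

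Il1r2, the decoy receptor, was 456.1, 248.6 and 371.3 CPM in 8.4/aFGF and 140.2, 137.1 and 110.6 CPM in 8.4/bFGF. Its log2 fold change of 1.47 had a small error (SE 0.227) and an edgeR adjusted p of 0.0714. Il1rl1 differed by 2.30 (SE 0.317, adjusted p = 0.0714), Il33 by 1.95 (SE 0.321, 0.0804) and Il1a by -1.96 (SE 0.515, 0.131) at this pH. DESeq2 called these 4 and Il6 at pH 8.4, with 5.24% of all genes called, Il1a at pH 6.4, with 0.666% of all genes called, and Il1rl1 at pH 7.4, with 1.48%. Without 8.4/aFGF replicate 3, edgeR called Il1rl1 at pH 8.4 (log2 fold change 2.52, adjusted p = 0.0394) and 1.12% of all genes.

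Within a growth factor, neither pH 6.4 nor pH 8.4 gave a difference from pH 7.4 that edgeR called in these genes. The groups at pH 6.4 and 8.4 were not tested against each other. Against pH 7.4, edgeR called 0 of 10 members and 0% of all genes at pH 6.4 with aFGF, 0% at pH 8.4 with aFGF, 0% at pH 6.4 with bFGF and 0% at pH 8.4 with bFGF. At an unadjusted p under 0.05, 0 members passed in 3 comparisons: 6.4/aFGF (4.99% of all genes), 8.4/aFGF (3.01%) and 6.4/bFGF (8.89%). In 8.4/bFGF against 7.4/bFGF, 2 members and 5.72% of all genes passed. The pair was Il1r2, at 140.2, 137.1 and 110.6 CPM against 204.0, 194.7 and 217.1 CPM (log2 fold change -0.64, SE 0.111, edgeR adjusted p = 0.861), and Il33 (log2 fold change -0.66, adjusted p = 0.861). DESeq2 called Il1r2 there, with 0.15% of all genes called, and 0 members in the other 3. Among the comparisons with pH 7.4, Il6 and Lif had their widest differences in 8.4/aFGF against 7.4/aFGF. These were 1.36 (SE 0.879) and 2.02 (SE 0.933) on the log2 scale. In that pair 8.4/aFGF replicate 1 was again far above the rest.

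Whether the pH difference depended on the growth factor was tested as an interaction. Neither edgeR nor DESeq2 called a member, and edgeR called 0% of all genes for pH 6.4 against 7.4 and 0% for pH 8.4 against 7.4. For pH 8.4 against 7.4, Il1r2 (0.89, SE 0.252) and Il33 (1.09, SE 0.461) passed an unadjusted p under 0.05, as did 4.73% of all genes. Both had an edgeR adjusted p of 0.993. For pH 6.4 against 7.4, 0 members passed an unadjusted p under 0.05, against 6.09% of all genes.

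Ordered by group median, the levels of these genes mostly did not separate neighbouring groups. For Il1rl1 the order ran from 8.4/aFGF (348.2 CPM) over 7.4/aFGF (313.3), 6.4/aFGF (169.6), 6.4/bFGF (115.0), 7.4/bFGF (97.7) and control (87.8) to 8.4/bFGF (81.3), and each group overlapped the next. For Il33 it ran from 8.4/aFGF (1088.2 CPM) over 7.4/aFGF (789.7), 6.4/aFGF (563.5), 7.4/bFGF (415.6), 6.4/bFGF (387.7) and control (310.5) to 8.4/bFGF (226.1), again with overlap at every step. Il1r2 had the same 3 aFGF groups on top, at medians of 371.3, 300.2 and 235.4 CPM. For Il1a the 8.4/bFGF (54.5 CPM) and 6.4/bFGF (43.2 CPM) medians came first, and 6.4/bFGF did not overlap the next group, 6.4/aFGF (16.9 CPM). For Il1r1, 7.4/bFGF did not overlap the next group, 8.4/bFGF (medians of 242.9 against 222.0 CPM), but the nearest libraries had 225.7 and 224.4 CPM. The share of all genes without overlap in this pair was not counted. In Il1b, Il1rn, Il1r2, Il6, Osm and Lif, all neighbours overlapped.

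Against the control without a scaffold, none of the 10 genes was called. Over 15811 genes, 0.114% were called for any difference among the 7 groups and 0.00632% for the mean of the hydrogel groups against the control. Il1rl1 was the member with the smallest p among the 7 groups (edgeR adjusted p = 0.136), and it was the single one under an unadjusted 0.05, where 19.3% of all genes lay. DESeq2 called Il1rl1 among the 7 groups (10.8% of all genes called) and 0 members for hydrogel against control. The 6 single groups were each compared with the control too. By edgeR, 0 members and 0% of all genes were called for 6.4/aFGF, 0% for 7.4/aFGF and 0% for 8.4/aFGF. With bFGF, 0 members were called too, and 0% of all genes for 6.4/bFGF, 0% for 7.4/bFGF and 0% for 8.4/bFGF. DESeq2 called 0 members in these comparisons. Under an unadjusted p of 0.05 lay 0 members, against 7.48% (8.4/bFGF) to 11.5% (8.4/aFGF) of all genes.

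The control values show where this comparison stands. Il1b was 155.5, 1795.5 and 48.9 CPM in the control libraries and 185.5 to 1661.0 CPM (median 545.7) in the 18 hydrogel libraries. Control replicate 2 was thus the highest of all 21 libraries and the other 2 were the lowest. The fitted log2 difference, hydrogel minus control, was -0.04 with an interval of -1.53 to 1.44. Il1rn was 85.8, 695.6 and 53.3 CPM in the controls and 83.6 to 376.7 CPM in the hydrogel libraries. Il1a was 5.11, 153.7 and 4.38 CPM in the controls and 7.28 to 127.3 CPM in the hydrogel libraries. The log2 difference of Il1a was -0.98 (SE 0.769, edgeR adjusted p = 0.534), and 2.54 (adjusted p = 0.0717) without control replicate 2. In Il1a, as in Il1b, the control group held both the highest library and the 2 lowest.

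The receptors were less extreme in that library. Il1r1 was 147.5, 274.1 and 104.9 CPM in the controls and 159.6 to 453.4 CPM (median 263.4) in the hydrogel libraries, a log2 difference of 0.65 (SE 0.286, interval 0.05 to 1.25, edgeR adjusted p = 0.267). It was the single member under an unadjusted p of 0.05, against 16.7% of all genes. Il1r2 was 47.1, 290.0 and 31.4 CPM in the controls and 87.4 to 456.1 CPM (median 226.3) in the hydrogel libraries, a log2 difference of 0.92 (SE 0.514, adjusted p = 0.381). Il6 was 6.54, 105.5 and 11.5 CPM, Osm 11.0, 152.3 and 9.62 CPM and Lif 4.61, 53.5 and 9.54 CPM in the controls. For these 3 ligands too, replicate 2 was higher than the other controls.

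Leaving out control replicate 2 changed the calls, and this alternative leaves 2 control libraries. Then 3 members were called higher with hydrogel, where 7.4% of all genes were called: Il1b (log2 difference 2.66, SE 0.735, adjusted p = 0.0326), Il1r1 (1.13, SE 0.310, adjusted p = 0.0324) and Il1r2 (2.57, SE 0.455, adjusted p = 0.00562), by edgeR. Among the 7 groups it gave calls for Il1r2 and Il1rl1, with 5.38% of all genes called. For 7.4/aFGF against control it gave Il1r2 (2.99) and Osm (2.31), with 3.75% of all genes called. For 8.4/aFGF against control it gave Il1r2 (3.24), Il1rl1 (2.66), Il33 (1.94) and Osm (3.48), with 7.83% of all genes called. The neutrophil markers moved with these values: their summed level was 1344.4 and 836.7 CPM in those 2 controls and 3576.6 to 13665.5 CPM in the hydrogel libraries, and all 11 markers were detected in every library. Their part in these differences was not tested.

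The balance of antagonist to agonist was measured as the log2 ratio of Il1rn to Il1b counts, which does not depend on library scaling. It was lower with a hydrogel. The mean was -0.70 ± 0.759 (SD, n = 3) in the control and -1.81 ± 0.539 (SD, n = 18) in the hydrogel libraries, a difference of -1.11 (exact permutation test, two-sided, p = 0.0105). Il1b counts per Il1rn count were 1.81, 2.58 and 0.917 in the control libraries. They ranged from 1.96 in 7.4/bFGF replicate 1 to 7.68 in 8.4/aFGF replicate 1. By group, the mean log2 ratio was lowest in 6.4/bFGF (-2.24 ± 0.251) and 8.4/aFGF (-2.17 ± 0.767) and, among hydrogel groups, highest in 7.4/bFGF (-1.14 ± 0.247; SD, n = 3 each). Without control replicate 3, the single library with more Il1rn than Il1b counts, the difference was -0.70 (exact permutation p = 0.0737). Without control replicate 2 it was -1.45 (exact permutation p = 0.0105).

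**Figure D3:**
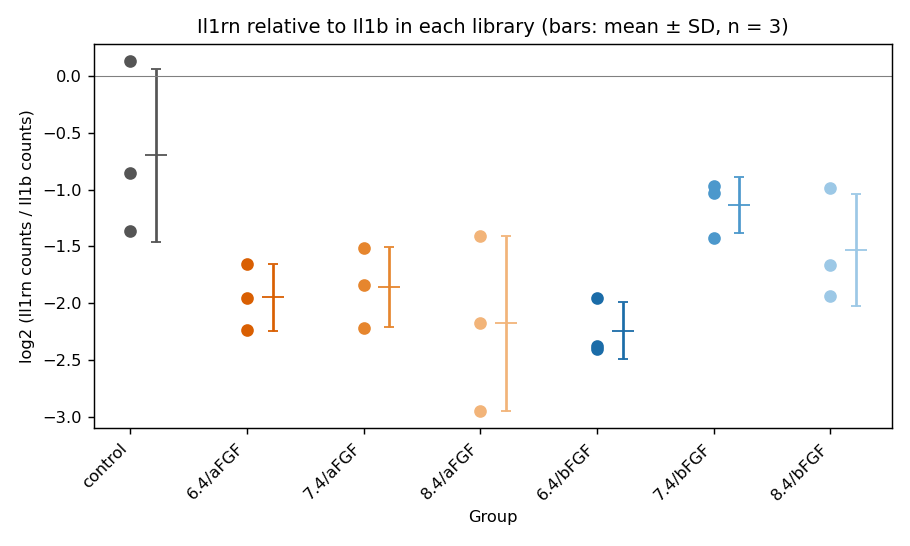
Log2 ratio of Il1rn to Il1b counts in each of the 21 libraries (points), with the mean and SD of each group (bars, n = 3). The control points lie between -1.37 and 0.12 and the hydrogel points between -2.94 and -0.97.

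By summed marker level, most of the genes followed the neutrophil markers over the 21 libraries. In 90 pairs of a member and a marker list, 16 had an adjusted permutation p under 0.05 by Pearson's r and 16 by Spearman's rho. With the neutrophil list, 7 members passed by r: Il1r2 (r = 0.836, rho = 0.625, adjusted permutation p = 0.000771 and 0.0232), Il1b (r = 0.818, rho = 0.726, 0.0003 and 0.00437), Osm (r = 0.782, rho = 0.829, 0.0003 and 0.0006), Lif (r = 0.629), Il1a (r = 0.613), Il1rn (r = 0.600) and Il6 (r = 0.591). By rho Il6 did not pass (rho = 0.538, adjusted permutation p = 0.0658) and the other 6 did. The sum weighs S100a9 and S100a8 most, with medians of 2481.0 and 1937.5 CPM against 376.4 CPM for Csf3r, the next marker. With the mean log2 CPM of the same markers, Il1b, Il1r2, Osm and Lif passed by r. Il1a, Il1rn and Il6 then did not (adjusted permutation p = 0.0838, 0.0838 and 0.0559). Il1r1 (r = 0.503), Il1rl1 (r = 0.442) and Il33 (r = 0.361) did not pass with the list, and the difference between members was not tested. The neutrophil marker Csf3r alone was tried after the values had been seen, and its p-values were adjusted over 10 pairs in place of 90. All 10 members then passed, with r from 0.444 for Il1rl1 to 0.872 for Il1r2. For Il1rl1, r was nearly the same as with the list, while the adjusted permutation p was 0.0423 in place of 0.186. Passing with Csf3r is therefore not comparable with passing with the list. The smallest p that the 100000 permutations can give is 1e-05. The 2 libraries farthest from the median of the neutrophil list were control replicates 3 and 1, and without them 1 member still passed, Osm (r = 0.718, adjusted permutation p = 0.0075). For Il1b and Il1r2, r was then 0.587 and 0.542 (adjusted permutation p = 0.0682 and 0.116), so that passing the test rests on the 2 controls. Within groups, as deviations from the group means, Il1r2 (r = 0.854, adjusted permutation p = 0.0245), Osm (r = 0.909, 0.0198) and Il1a (r = 0.854, 0.0478) passed, and Il1b had r = 0.854 with an adjusted permutation p of 0.056.

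**Figure D4:**
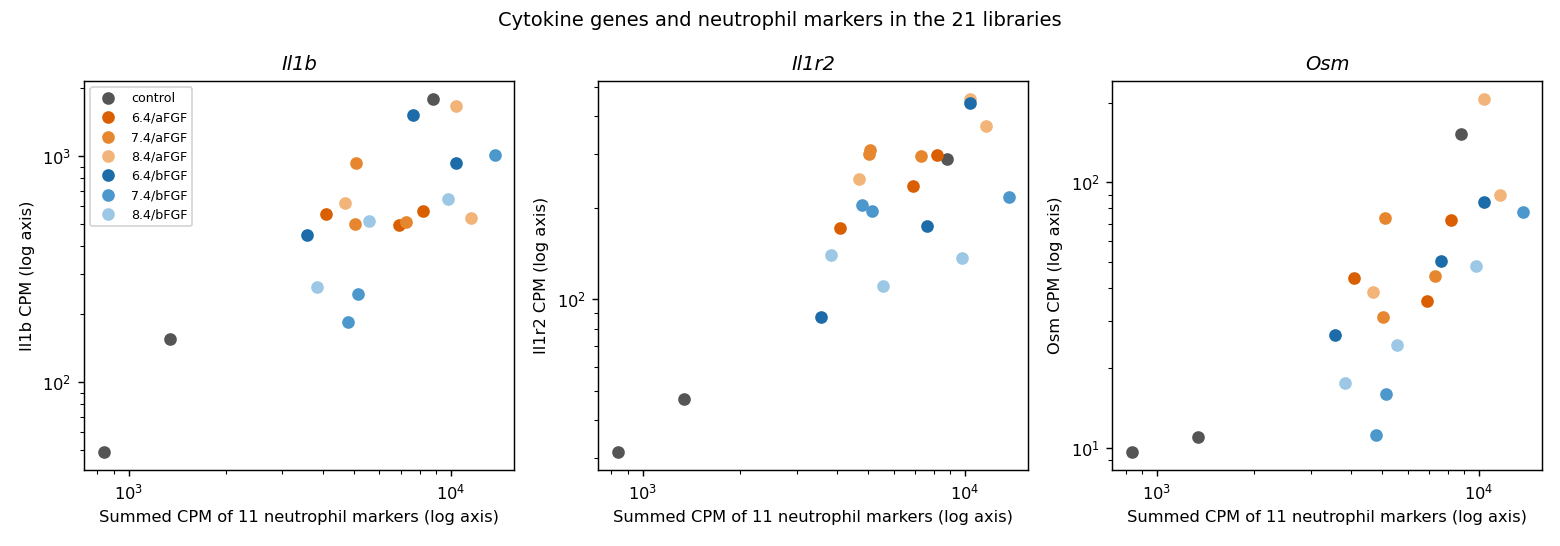
CPM of Il1b, Il1r2 and Osm against the summed CPM of 11 neutrophil markers, both on log axes, with 1 point per library in the color of its group. The controls at 837 and 1344 CPM of marker RNA lie at the lower left, and the third control at 8779 CPM lies among the hydrogel libraries.

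With the macrophage list, Il33 passed by both measures (r = 0.708, rho = 0.677, adjusted permutation p = 0.0036 and 0.0106), also without the 2 farthest libraries (r = 0.634, adjusted permutation p = 0.0412). Within groups its r was 0.553 (adjusted permutation p = 0.112). Il1r1 passed by rho (0.617, adjusted permutation p = 0.024) and not by r (0.497, adjusted permutation p = 0.1). With the mast cell list 8 members passed, but that list was dominated by Hdc, the histidine decarboxylase gene, which made up a median of 62.4% of its sum. Hdc followed the neutrophil marker Csf3r (r = 0.784) and not the other mast cell genes (r = -0.298). Without Hdc, 0 members passed with the mast cell list, with Pearson's r between -0.398 and 0.060. With Hdc alone all 10 passed, with r from 0.504 for Il1a to 0.926 for Il1b. Both of these were tried after the values had been seen, with p-values adjusted over 10 pairs each. No member passed with the T and NK cell, keratinocyte, fibroblast, endothelial, skeletal muscle or adipocyte list by its summed level. By the mean log2 CPM of the markers, Il1r2, Il33 and Il1rl1 passed with the fibroblast list (r = -0.616, -0.608 and -0.606) and Il33 with the endothelial list (r = -0.628), all with adjusted permutation p between 0.0416 and 0.0424.

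Among themselves, the 3 gp130 ligands varied closely together, as a description over the same 21 libraries. Pearson's r of log2 CPM was 0.923 for Il6 and Lif, 0.908 for Osm and Lif, 0.849 for Il6 and Osm, 0.887 for Il1b and Osm and 0.843 for Il1b and Il1rn, and it was 0.790 for Il1b and Lif and 0.753 for Il1b and Il6. The ligand Il33 and its receptor Il1rl1 had r = 0.796. Il1a went with Il1b (r = 0.642) and Il1rn (r = 0.658) and not with Il33 (r = -0.162) or Il1rl1 (r = -0.075). On deviations from the group means, r of Il1a with Il1rl1 was 0.469 and with Il33 0.258.

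**Figure D5:**
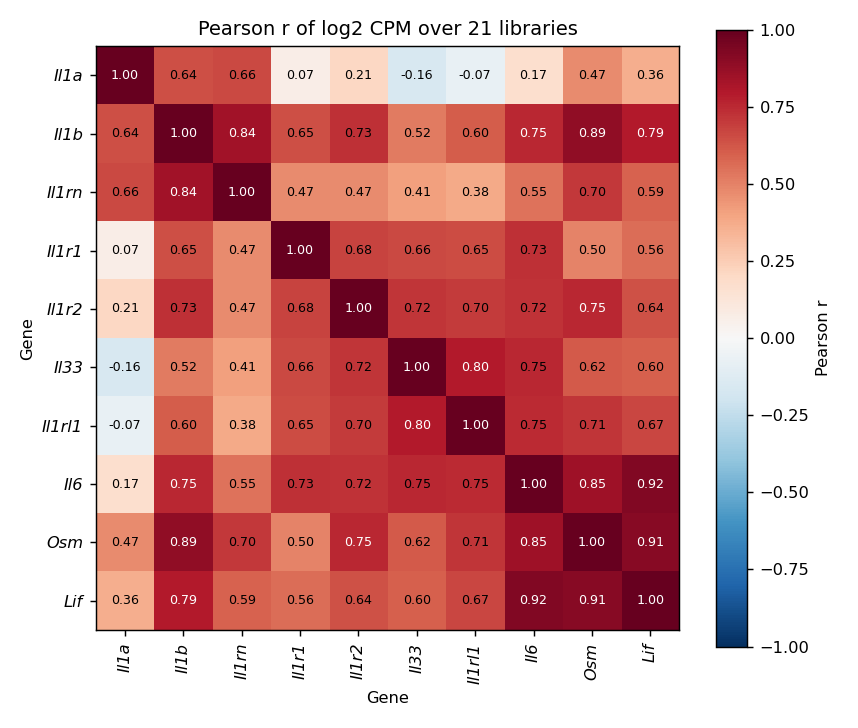
Pearson's r of log2 CPM between each pair of the 10 genes over 21 libraries, from blue (-1) to red (1). The block of Il6, Osm and Lif reaches 0.85 to 0.92, and the row of Il1a is pale against Il33, Il1rl1 and Il1r1.

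The genes with the profile most like each member, out of all that passed the filter, were named by the highest r of log2 CPM over the 21 libraries. For Il1b they were Nlrp3, the inflammasome sensor (r = 0.972), Cxcl2, a neutrophil chemokine (r = 0.958), and Maff (r = 0.957). For Il1a they were Ccl3, a chemokine of myeloid cells (r = 0.937), Il23a (r = 0.873) and Inava (r = 0.864), and Il23a had a median of only 0.498 CPM. Il1rn was followed by Traf1 (r = 0.927), Tnfrsf1b (r = 0.916) and Nfyb (r = 0.904). Il1r1 was followed by Osmr, the oncostatin M receptor (r = 0.918), Egfr (r = 0.893) and Zdhhc13 (r = 0.880). Il1r2 was followed by Mctp2 (r = 0.947), Emb (r = 0.942) and Il18rap, a chain of the IL-18 receptor (r = 0.937). Il33 was followed by Ugdh, an enzyme that makes the precursor of hyaluronan (r = 0.943), Gtf2f1 (r = 0.942) and Agfg1 (r = 0.939). Il1rl1 was followed by Pde7b, a cyclic AMP phosphodiesterase (r = 0.920), Atf4 (r = 0.914) and Crem (r = 0.905). Il6 and Lif shared Ets2 (r = 0.959 and 0.948) and Ndel1 (r = 0.954 and 0.945), with Phlda1 (r = 0.957) the other neighbour of Il6 and Rabgef1 (r = 0.934) that of Lif. For Osm they were Cdkn1a, the cell cycle inhibitor p21 (r = 0.964), Csrnp1 (r = 0.960) and Tiparp (r = 0.958).

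Of 79 other genes of these pathways, 7 were called between aFGF and bFGF, and all 7 were higher with aFGF. This is 8.86% of the 79, against 3.77% of all genes called. At an unadjusted p under 0.05 the shares were closer, with 27 of the 79 (34.2%) against 29.9% of all genes. By list, 2 of 15 other IL-6 family ligands and receptors, 2 of 8 gp130 signalling genes, 1 of 12 other IL-1 family ligands and receptors, 1 of 13 IL-1 receptor signalling genes, 1 of 23 targets and 0 of 8 inflammasome genes were called. The median log2 fold change was 0.02, 0.21, 0.12, 0.24, 0.21 and 0.16 in these lists, in the same order, against -0.00119 over all genes.

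Among the ligands, Clcf1, a cytokine that acts through gp130, was 12.5 to 25.9 CPM (median 18.5) in the 9 aFGF libraries and 5.66 to 11.5 CPM (median 8.64) in the 9 bFGF libraries. These ranges did not overlap, and the log2 fold change was 1.14 (SE 0.149, edgeR adjusted p = 0.00202). Il11, a fibrosis-linked relative of IL-6, was 9.52 to 86.4 CPM against 1.84 to 27.6 CPM (log2 fold change 1.73, SE 0.521, adjusted p = 0.0428). Areg, an EGF receptor ligand that IL-33 induces in some lymphocytes, was 9.02 to 39.4 CPM against 4.95 to 8.96 CPM (log2 fold change 1.61, SE 0.260, adjusted p = 0.00419). Of the 7 called genes, Clcf1 and Areg were those whose aFGF and bFGF libraries lay fully apart. The 7 were picked by their call in this same comparison, so this separation is no further support. The share of all genes that lay apart in this way was not counted.

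The signalling genes called were inhibitors or a transcription factor. Socs3, the feedback inhibitor of gp130, was 361.9 to 1230.3 CPM with aFGF and 259.6 to 612.0 CPM with bFGF (log2 fold change 0.75, edgeR adjusted p = 0.0493). Socs1 differed by 0.97 (adjusted p = 0.0277) and Nfkb1, a subunit of NF-kB, by 0.87 (adjusted p = 0.0126). Il18bp, which neutralizes IL-18, differed by 0.72 (adjusted p = 0.0448). Its difference lay mostly at pH 7.4, with means of 51.95 CPM for aFGF against 17.56 CPM for bFGF. The means were 17.41 against 15.38 CPM at pH 6.4 and 18.02 against 13.73 CPM at pH 8.4. Against the control, edgeR called 0 of the 79, and 7 (8.86%) had an unadjusted p under 0.05, against 16.7% of all genes. The smallest p among them were those of Map3k7 (log2 difference 0.19), Sigirr, an inhibitory receptor of the family (-0.61), Il6ra, the IL-6 receptor (0.51), Tollip (0.28) and Pycard (-0.35), with adjusted p between 0.167 and 0.26.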

How the data were processed

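RNA of wound tissue was sequenced as 21 TruSeq Stranded mRNA libraries after TRIzol extraction. The authors deposited raw counts per gene and FPKM for each library, and the submitters' processing notes name the build GRCm39. The aligner, counter, annotation and strand setting are not given in the sources used here. FPKM equalled count over length and total, tested on 13158 genes. Symbols were matched to a RefSeq table (18662 of 18806). The 10 members and all lists were chosen with earlier results of these data known. All 10 members, called pathway genes, the 5 pathway genes with the smallest p against control and among the 7 groups, and the 3 genes most alike in profile to each member are named.

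Counts were tested over all genes with edgeR 4.0.16 (R 4.3.3; TMM, filterByExpr, quasi-likelihood F-test, Benjamini-Hochberg); a standard error is the log2 fold change over the root of F. A pair of groups was fitted on its own 6 libraries, and other comparisons on 12, 18 or 21. Intervals use the t distribution of the fit. Log2 CPM used a prior count of 2, and correlations 100000 permutations. Alternatives were DESeq2 1.42.0, RLE normalization, no filter, no fold threshold, a replicate block and leaving out each library. On simulated counts for 9 aFGF against 9 bFGF libraries (15570 genes), 74 of 100 genes changed 2-fold and 91 of 100 changed 4-fold were recovered. For 8.4/aFGF against 8.4/bFGF (14906 genes) these were 35 of 99 and 79 of 100. Replicate pairs differed by more than sampling noise (chi-square per degree of freedom 17.2 to 368). The study's methods assign 3 mice to each group and give several days of sacrifice. Depth was 34362558 to 37817833 counts per library, and 3 counts correspond to 0.0873 CPM or less. No sequence is shown.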

Additional observations from a re-analysis of the deposited data

Results flagged for a closer look

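Il1b differed between pH 6.4 and 7.4 by -0.20 on the log2 scale with aFGF and by 1.27 with bFGF, a difference of -1.32 in the edgeR interaction fit (adjusted p = 0.836), which was picked out because each pH 6.4 library lay below the mean of the pH 7.4 libraries with aFGF and above it with bFGF, while the libraries themselves overlapped. The aFGF minus bFGF difference of Il1b was -0.67 at pH 6.4 and 0.88 at pH 8.4, a gap of -1.55 that was picked out in the same way, against the mean of the bFGF libraries, and was not tested. Il33 differed between pH 8.4 and 7.4 by 0.49 with aFGF and by -0.74 with bFGF, picked out by the same rule of libraries against a mean, and the difference of 1.09 had an adjusted p of 0.993 in the edgeR interaction fit, with an unadjusted value under 0.05.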

How the results depend on the processing

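Over counts of calls, the ratio and the correlations, 277 values under an alternative kept their direction and side of the threshold or stayed within 1.5 times, 15 counts did not and 1 difference no longer passed its test. Many of the 277 were counts of called members that were 0 in the main fit and stayed 0, which says little about how firm a result is. Of the single genes followed, 133 values kept their call, 6 lost it (all Il1a) and 6 gained one. DESeq2 called 1 member among the 7 groups, 1 for 8.4/bFGF against 7.4/bFGF, 1 for aFGF against bFGF at pH 6.4, 1 at pH 7.4 and 5 at pH 8.4, where edgeR called 0, and 5 for aFGF against bFGF pooled, where edgeR called 3. Leaving out 1 library at a time gave 0 to 2 members among the 7 groups, 0 to 3 for hydrogel against control, 0 to 2 for 7.4/aFGF and 0 to 4 for 8.4/aFGF against control, 0 to 1 for aFGF against bFGF at pH 8.4 and 2 to 5 pooled. The highest of these came without control replicate 2 in the first 4, without 8.4/aFGF replicate 3 at pH 8.4 and without 7.4/bFGF replicate 3 pooled. The log2 ratio of Il1rn to Il1b differed by -1.45 to -0.70, the latter without control replicate 3. The number of correlations with an adjusted permutation p under 0.05 was 9 with the mean log2 CPM of the markers (4 of them with the fibroblast and endothelial lists), 7 within groups and 9 without the 2 farthest libraries, against 16. The cause of these changes was not tested. Same-numbered libraries did not deviate together as a rule (median r 0.009, from -0.638 to 0.423 over 63 pairs, with 14 over 0.1). In 51 of 126 matches of a library with another group, the closest library had its own number. Without pairing 1 in 3 would be so, and the observed share was somewhat higher. The excess was not tested. The main fits used no pairing by number, and this check cannot exclude a weak one. With the replicate block, 3 members were called for aFGF against bFGF pooled, Il1a, Il1rl1 and Il33, where 468 genes were called in place of 592, and 0 in every other comparison. No called value changed direction. The uncalled hydrogel minus control differences of Il1b (-0.04) and Il1a (-0.98) turned to 2.66 and 2.54 without control replicate 2. With 3 libraries a group, the recovery of 2-fold changes in simulated counts was 35.4% at pH 8.4, so a difference of that size may go uncalled. Larger estimated differences also went uncalled by edgeR at pH 8.4, such as those of Il1rl1 (a fold of 4.94) and Il6 (a fold of 9.46).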
